A study of Mus musculus with 6 samples.

Results

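Nonsense-mediated mRNA decay (NMD) is the pathway that destroys transcripts on which the ribosome stops too early, and its factors were read here as 9 genes, the *Upf* genes *Upf1*, *Upf2*, *Upf3a* and *Upf3b* and the *Smg* genes *Smg1*, *Smg5*, *Smg6*, *Smg8* and *Smg9*. They were taken by gene name from a table of 54532 genes, and all 9 were found and passed the minimum level set for testing. RNA of whole ovaries of C57BL/6 mice at 16.5 days post-coitus (dpc) was sequenced in 3 control (Ctrl) and 3 *Srsf1* conditional knockout (cKO) libraries. The labels give Ctrl as wild type. The cKO mice carry *Srsf1* floxed on both alleles (Fl/Fl) and the *Stra8-GFPCre* transgene. The Cre acts in germ cells from the start of meiosis, so the somatic cells of a cKO ovary keep *Srsf1*. Values are FPKM, the reads on a gene divided by gene length and scaled to the depth of the library.

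In NMD, the RNA helicase UPF1 binds at a stalled stop codon, and UPF2 with UPF3A or UPF3B links it to the exon junction complex, a protein mark that splicing leaves upstream of each exon border. The kinase SMG1, held in check by SMG8 and SMG9, then phosphorylates UPF1. Phosphorylated UPF1 draws SMG6, which cuts the RNA, and SMG5, an adaptor through which decapping and deadenylation are brought in. SRSF1, a splicing factor that binds exons, is known to promote NMD of transcripts it sits on. Many NMD factor mRNAs, among them those of *Upf1*, *Upf2*, *Upf3b*, *Smg1*, *Smg5* and *Smg6*, are themselves known substrates of the pathway.

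The targeted gene was read first. *Srsf1* was at 80.2, 70.1 and 63.1 FPKM in Ctrl 1, 2 and 3 and at 32.4, 37.0 and 36.4 FPKM in cKO 1, 2 and 3, so the groups did not overlap. The log2 fold change was -0.99 (standard error 0.13), with an unadjusted p of 0.000158 and an adjusted p of 0.497 in limma. Since whole ovaries were used, fewer cells of a type and less RNA per cell cannot be told apart in this or any later value. The libraries held between 14212164 and 16784241 reads on genes. The summed FPKM of 10 germ-cell markers differed widely within both groups, with sums of 160, 339 and 615 for Ctrl 1, 2 and 3, while cKO 1, 2 and 3 had sums of 673, 258 and 786. Of the 10, 0 were at 0 in every library. Among the markers of other cells, the summed FPKM was between 463 and 554 in Ctrl and between 423 and 666 in cKO for 8 pregranulosa genes, and between 4860 and 22984 in Ctrl and between 1716 and 10420 in cKO for 8 red blood cell genes. Of these 8, *Hbb-y*, an embryonic globin named after its values were seen, passed the unadjusted limit as higher in cKO (log2 fold change 2.10, unadjusted p = 0.00589 in limma), and 6 had a log2 fold change below 0. The share past the limit was 12.5% of the 8 and 4.43% of all 17180 genes tested, of which 8958 lay below 0. The protocol text of the labels names retina, but the summed FPKM of 7 retina genes was at most 0.817 in any library.

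The sequences before the start sites of *Smg1* and *Upf3a* are shown because these were the members whose levels varied most between libraries. They are the 250 bases upstream of the RefSeq start in GRCm38, read 5′ to 3′ on the strand of the gene. In the deposited coordinates *Smg1* reaches to 118243670, inside its window. The last bases shown for it, with its last GC box, thus lie within that annotated gene. Capitals mark GC boxes (GGGCGG, or CCGCCC in reverse) and CCAAT boxes (CCAAT, or ATTGG in reverse), both searched on both strands.
Smg1, minus strand, chr7:118243638-118243887: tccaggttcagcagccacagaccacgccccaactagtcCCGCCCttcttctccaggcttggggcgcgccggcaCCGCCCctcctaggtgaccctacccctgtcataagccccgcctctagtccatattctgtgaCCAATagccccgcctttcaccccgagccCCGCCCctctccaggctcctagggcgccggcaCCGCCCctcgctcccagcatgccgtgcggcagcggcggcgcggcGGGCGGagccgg
Upf3a, plus strand, chr8:13785365-13785614: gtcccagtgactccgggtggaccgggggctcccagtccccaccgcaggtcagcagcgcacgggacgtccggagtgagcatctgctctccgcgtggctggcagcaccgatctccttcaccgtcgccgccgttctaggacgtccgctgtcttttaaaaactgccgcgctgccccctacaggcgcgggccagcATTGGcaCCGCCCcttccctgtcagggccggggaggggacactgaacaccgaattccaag
The window of *Smg1* held 5 GC boxes and 1 CCAAT box, and that of *Upf3a* held 1 of each. All 9 members had a window in the RefSeq table, with 12 to 41 CpG dinucleotides each, where the median over 32851 windows of the same length was 6. Of all windows, 33.5% held at least 12. A GC box was present in 7 of the 9 windows and in 32.7% of all windows, and a CCAAT box in 4 of the 9 and in 33.8% of all. The motifs were chosen after the members' levels were known, and a match is a description of the letters only.

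The 9 factors were expressed in every library, and 8 of the 9 means lay between 8.65 and 22.8 FPKM. *Upf1* was the highest, with a mean of 30.7 FPKM over the 6 libraries (range 28.1 to 35.7), and its range lay above that of every other member. *Upf3b* followed with a mean of 22.8, then *Upf2* with 18.9, *Smg5* with 17.7, *Smg1* with 15.0, *Smg6* with 11.5, *Smg8* with 11.3, *Smg9* with 9.14 and *Upf3a* with 8.65. Below *Upf1*, the ranges of neighbours in this order overlapped. Within libraries, *Smg8* was above *Smg9* in all 6, and the other neighbours below *Upf1* changed places in at least 1 library. The order also depends on gene length, because the deposited length counts all annotated exons. For *Upf3a* it is 5865 bases, where the longest coding transcript in GENCODE M21 has 2057 bases, and the annotation of the gene includes 2 transcripts with retained introns. Divided by the longest coding transcript instead, the mean became 38.9 for *Upf3b*, 30.7 for *Upf1* and 24.7 for *Upf3a*, and *Smg8* became the lowest at 11.3. This second scale was chosen after the values had been seen, and it overstates a gene whose reads fall partly on retained introns.

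**Figure D1:**
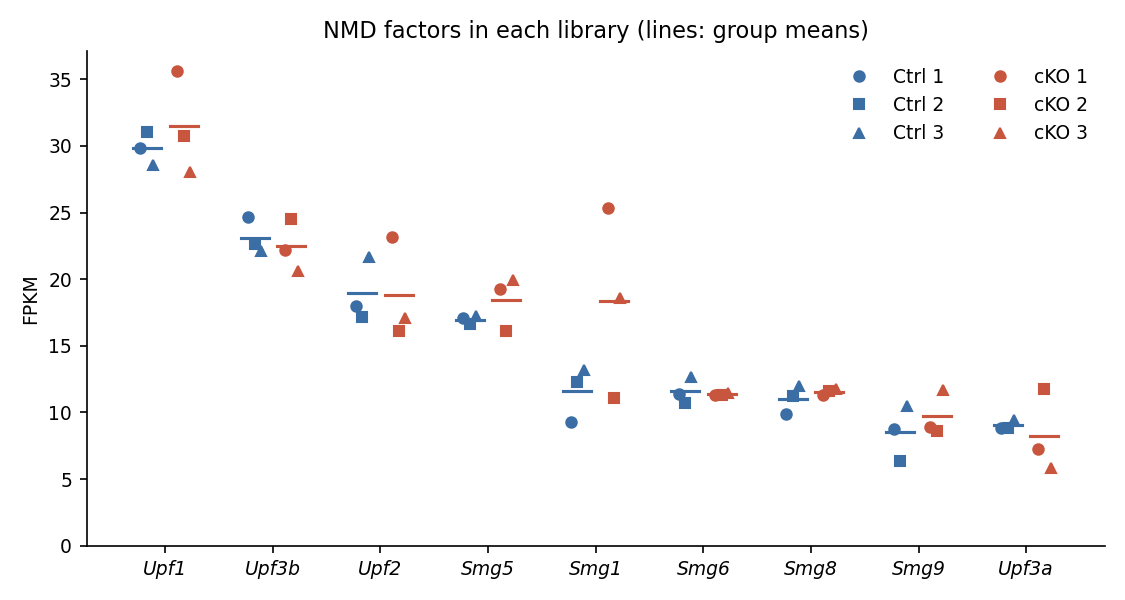
FPKM of the 9 NMD factors in each library (vertical axis, linear from 0), with Ctrl in blue, cKO in red, symbols for replicates 1 to 3 and lines for group means. The groups overlapped for every factor, and *Smg1* had the widest spread, from 9.28 to 25.3.

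To ask whether loss of *Srsf1* went with another level of the decay machinery, cKO was compared with Ctrl by limma on log2(FPKM + 1) over 17180 genes. Of the 9 factors, 0 passed an unadjusted p below 0.05, where 4.43% of all genes tested passed, 2.68% as higher and 1.75% as lower in cKO. For 0 of the 9 did the groups lie apart, which 8.68% of all genes did, 4.59% with cKO as the higher group. Over all genes tested, 460 were higher and 301 lower in cKO ovaries at that limit, and limma called 0 at a Benjamini-Hochberg adjusted p below 0.05. The split was 349 higher and 345 lower under limma voom on reads recovered from the FPKM values, where again 0 factors passed and 0 genes were called at an adjusted p below 0.05. The log2 fold changes of the factors had a median of 0.06, with 5 above 0 and 4 below, beside a median of -0.01 over all genes tested. For 8 of the 9, the 95% interval lay within 2-fold in either direction, and for 6 it lay within 1.41-fold. The exact permutation test cannot go below p = 0.1 with 3 libraries against 3, and it gave between 0.3 and 0.9 for the 9 factors.

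**Figure D2:**
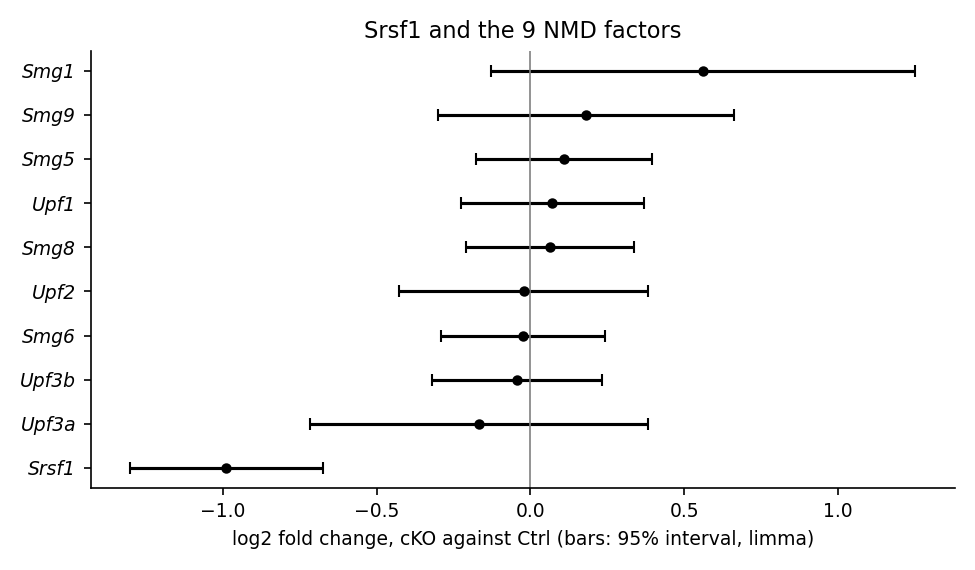
Log2 fold change of cKO against Ctrl for *Srsf1* and the 9 NMD factors, with points for the limma estimate and bars for its 95% interval (n = 3 per group). The interval of *Srsf1* lay below 0, and those of all 9 factors included 0.

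*Upf1* (ENSMUSG00000058301, chromosome 8, 70331525 to 70353278, minus strand), the helicase at the centre of the pathway, was at 29.8, 31.0 and 28.6 FPKM in Ctrl and at 35.7, 30.8 and 28.1 FPKM in cKO. Only cKO 1 stood above the Ctrl range, and cKO 3 lay below it. The log2 fold change was 0.07 (standard error 0.12, 95% interval -0.23 to 0.37), so a rise above 1.29-fold or a fall below 0.855-fold lay outside the interval. At its 3′ end the gene overlaps *Cers1* and *Gdf1* on the other strand by fewer bases than 1 read covers.

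The partners that join UPF1 to the exon junction complex gave small or unsteady differences. *Upf2* (ENSMUSG00000043241, chromosome 2, 5951469 to 6056703, plus strand) was at 18.0, 17.2 and 21.7 FPKM in Ctrl and at 23.1, 16.1 and 17.1 FPKM in cKO, which gave a log2 fold change of -0.02 (standard error 0.17). Here Ctrl 3 and cKO 1 were the high libraries, so each group held 1 high and 2 low values. *Upf3b* (ENSMUSG00000036572, chromosome X, 37091678 to 37110322, minus strand), the UPF3 paralog with the stronger NMD activity, was at 24.7, 22.6 and 22.1 FPKM in Ctrl and at 22.2, 24.5 and 20.6 FPKM in cKO. Its log2 fold change of -0.04 (standard error 0.12) had a 95% interval from -0.32 to 0.23, one of the narrowest of the 9.

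*Upf3a* (ENSMUSG00000038398, chromosome 8, 13785615 to 13799193, plus strand), a weaker paralog that has also been described as an inhibitor of NMD, was at 8.82, 8.86 and 9.42 FPKM in Ctrl. In cKO it was at 7.22, 11.8 and 5.80 FPKM. The cKO libraries thus lay on both sides of a tight Ctrl group, with an SD of 3.12 FPKM in cKO against 0.335 in Ctrl (n = 3 each). These values rest on 483 to 1158 reads, and the counting error of the lowest was 4.55%, far less than the spread in cKO. The log2 fold change was -0.17 (standard error 0.23), with an unadjusted p of 0.496 and an adjusted p of 0.983 in limma. Without cKO 2 it was -0.42, with an unadjusted p of 0.0177 and an adjusted p of 0.270 in limma. In that fit 2493 genes in place of 761 passed the unadjusted limit. Without cKO 3 the log2 fold change of *Upf3a* was 0.03.

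As a measure of the balance between the paralogs, the ratio of *Upf3b* to *Upf3a* FPKM was 2.80, 2.55 and 2.35 in Ctrl 1, 2 and 3. It was 3.08, 2.08 and 3.56 in cKO 1, 2 and 3, so both the highest and the lowest ratio were cKO libraries. The mean log2 ratio was 1.356 ± 0.126 (SD, n = 3) in Ctrl and 1.504 ± 0.399 in cKO (exact permutation test, two-sided, p = 0.6). The difference of 0.15 was 0.37 without cKO 2 and -0.02 without cKO 3.

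*Smg1* (ENSMUSG00000030655, chromosome 7, 118131308 to 118243670, minus strand), the kinase that phosphorylates UPF1, differed most between the group means. Ctrl 1, 2 and 3 had 9.28, 12.3 and 13.2 FPKM, and cKO 1, 2 and 3 had 25.3, 11.1 and 18.6 FPKM. Of the cKO libraries, 1 and 3 lay above the whole Ctrl range, and cKO 2 lay inside it. Ctrl libraries averaged 11.6 ± 2.04 FPKM (SD, n = 3) and cKO libraries 18.3 ± 7.11, for a log2 fold change of 0.56 (standard error 0.29, 95% interval -0.13 to 1.25). The unadjusted p in limma was 0.0954 and the adjusted p 0.978, and 1561 of the 17180 genes tested had a smaller unadjusted p. With 3338 to 9387 reads per library, the most of any member, the largest counting error was 1.73%. The call turned on cKO 2, since without that library the log2 fold change was 0.86 with an unadjusted p of 0.00610 in limma, and 2493 genes in place of 761 passed the limit. Without any other single library it stayed between 0.30 and 0.65 and did not pass.

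The libraries had the same order by *Smg1* as by the germ-cell sum, except that cKO 1 and cKO 3 changed places. Ctrl 1 was the lowest in both, followed by cKO 2, Ctrl 2 and Ctrl 3, and cKO 1 and cKO 3 were the highest. The sizes did not match in the same way. Ctrl 3, with a germ-cell sum of 615, had 13.2 FPKM of *Smg1*, where cKO 1, with 673, had 25.3. With the mean log2 level of the 10 germ-cell markers as a covariate, the log2 fold change of *Smg1* was 0.26 (standard error 0.21, unadjusted p = 0.273 in limma), and that of *Upf3a* was 0.01. Of the 10 markers, all 10 had a log2 fold change above 0, where 8222 of all 17180 genes tested did. Of the same 10, 2 passed the unadjusted limit, *Dazl* and *Dppa3*, named after their values were seen. This was 20% of the markers, against 4.43% of all genes tested. As the covariate is made of these markers, it can itself carry part of the difference between the groups. The levels of long and short genes moved in the same libraries. Over the 251 protein-coding genes with more than 16000 bases, of which *Smg1* with 23984 bases is one, the median level centred over the libraries was -0.07, -0.02 and -0.03 in the Ctrl libraries on the log2 scale, and 0.14, -0.15 and 0.10 in the cKO libraries. The 2043 genes with at most 2000 bases went the other way in cKO, with medians of -0.08, 0.13 and -0.12, while their Ctrl medians were 0.05, 0.00 and 0.01. On that scale *Smg1* was at -0.56, -0.19 and -0.10 in Ctrl and at 0.80, -0.32 and 0.37 in cKO. The part of germ-cell content and of length in the values of *Smg1* was not tested beyond these measurements. Within the span of *Smg1* and on its strand lies *Gm45084*, which had between 0 and 3 reads per library.

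**Figure D3:**
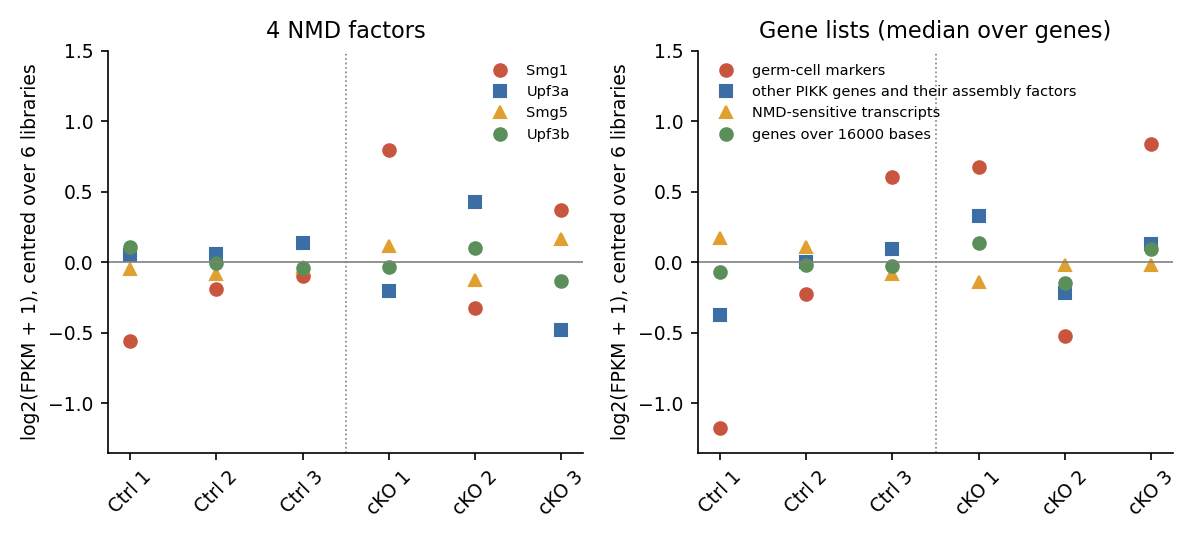
Level of 4 NMD factors (left) and median level of 4 gene lists (right) in each library, as log2(FPKM + 1) centred over the 6 libraries. *Smg1* ranged from -0.56 in Ctrl 1 to 0.80 in cKO 1, *Upf3a* from -0.48 in cKO 3 to 0.43 in cKO 2, and the germ-cell markers from -1.18 in Ctrl 1 to 0.84 in cKO 3.

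The genes most like *Smg1* over the 6 libraries, by Pearson's r of log2(FPKM + 1) among 13481 protein-coding genes tested, were *Dhx33*, *Pcx*, *Rnf183*, *Ralgapb* and *Mau2*, with r between 0.993 and 0.998. *Ralgapb*, for example, was at 8.52, 10.1 and 11.8 FPKM in Ctrl and at 19.4, 9.49 and 15.5 FPKM in cKO. The r is a description, as 224 of the genes had an r over 0.95 with *Smg1* and all share these 6 libraries. Among the members themselves, *Smg5* had the pattern most like that of *Smg1* (r = 0.84) and *Upf3b* the least (r = -0.72). The pair with the most opposite pattern was *Upf3a* and *Smg5* (r = -0.94). Of the 36 pairs of members, 21 had an r above 0 and 15 one below, so the 9 factors did not rise and fall as 1 block.

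The inhibitors of SMG1 varied less between libraries than *Smg1* did. *Smg8* (ENSMUSG00000020495, chromosome 11, 87077732 to 87086774, minus strand) was at 9.90, 11.3 and 12.0 FPKM in Ctrl and at 11.3, 11.6 and 11.7 FPKM in cKO, where the 3 libraries differed by little. Its log2 fold change was 0.06 (standard error 0.12). *Smg9* (ENSMUSG00000002210, chromosome 7, 24399619 to 24422778, plus strand) was at 8.77, 6.36 and 10.5 FPKM in Ctrl and at 8.87, 8.60 and 11.7 FPKM in cKO, which gave a log2 fold change of 0.18 (standard error 0.20), or 0.00397 without Ctrl 2 and 0.33 without Ctrl 3. Within each group replicate 3 was the highest for *Smg9*, and the groups overlapped. Between 381 and 680 reads stood behind the values of *Smg9*, the fewest of any member, with a counting error of up to 5.12%.

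Set against its substrate, *Smg1* had 0.311, 0.397 and 0.460 times the FPKM of *Upf1* in Ctrl 1, 2 and 3. In cKO 1, 2 and 3 the ratio was 0.710, 0.361 and 0.662, so the same 2 cKO libraries lay above Ctrl and cKO 2 lay within it. The mean log2 ratio was -1.38 ± 0.29 (SD, n = 3) in Ctrl and -0.85 ± 0.54 in cKO (exact permutation test, two-sided, p = 0.3).

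The factors that act on phosphorylated UPF1 had standard errors among the smallest of the 9. *Smg5* (ENSMUSG00000001415, chromosome 3, 88336260 to 88362338, plus strand), an adaptor for decay enzymes, was at 17.1, 16.6 and 17.3 FPKM in Ctrl and at 19.3, 16.1 and 19.9 FPKM in cKO. As with *Smg1*, cKO 1 and 3 lay above Ctrl and cKO 2 below cKO 1 and 3, here under every Ctrl library, and the log2 fold change was 0.11 (standard error 0.12, 95% interval -0.18 to 0.39). *Smg6* (ENSMUSG00000038290, chromosome 11, 74925823 to 75164448, plus strand), the endonuclease, was at 11.4, 10.7 and 12.7 FPKM in Ctrl and at 11.3, 11.3 and 11.5 FPKM in cKO, which gave a log2 fold change of -0.02 (standard error 0.11, 95% interval -0.29 to 0.24). The SD of *Smg6* was 1.01 FPKM in Ctrl and 0.103 in cKO, the smallest of any member in cKO.

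The ratio of *Smg6* to *Smg5*, the endonuclease against the adaptor, was 0.667, 0.645 and 0.735 in the Ctrl libraries, against 0.586, 0.703 and 0.576 in the cKO libraries. Again cKO 1 and 3 lay outside the Ctrl range, here below it, and cKO 2 lay inside (exact permutation test, two-sided, p = 0.3). The mean log2 ratio was -0.55 ± 0.10 (SD, n = 3) in Ctrl and -0.69 ± 0.16 in cKO.

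The rest of the pathway was read in lists. Of 17 further NMD genes, among them the release factors and cap-binding proteins, 0 passed the unadjusted limit, and the median log2 fold change was 0.02, with 12 above 0. Of 8 genes of the exon junction complex, 0 passed, with a median of -0.09 and 6 below 0. Over all genes tested, 8222 lay above 0 and 8958 below. In 2 of them, *Magohb* and *Pnn*, named after their values were seen, every cKO library lay below every Ctrl library. Of all 17180 genes tested, 704 lay apart with cKO as the lower group, and 8.68% lay apart in one direction or the other. Of 31 genes of general mRNA decay, 2 passed, or 6.45% against 4.43% of all genes tested. In this list, 2 genes lay apart with cKO as the higher group and 1 with cKO as the lower, beside the 8.68% of all genes. *Xrn2*, the nuclear 5′ to 3′ exonuclease, was at 36.2, 33.9 and 36.4 FPKM in Ctrl and at 43.2, 42.7 and 41.0 FPKM in cKO, with no overlap and a log2 fold change of 0.25 (standard error 0.10, unadjusted p = 0.0456 and adjusted p = 0.978 in limma). *Dcp1b*, a cofactor of the decapping enzyme, was at 4.63, 5.11 and 5.18 FPKM in Ctrl and at 3.57, 4.27 and 3.73 FPKM in cKO, with no overlap and a log2 fold change of -0.30 (standard error 0.12, unadjusted p = 0.0461 and adjusted p = 0.978 in limma).

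SMG1 belongs to the PI3K-related kinases (PIKK), and 8 other genes of this family and of its assembly factors were listed. The log2 fold change was above 0 in all 8 (median 0.16), and 0 passed the limit. Over all genes tested, 8222 of 17180 lay above 0. The kinases *Atm* (log2 fold change 0.66, standard error 0.41) and *Atr* (0.63, standard error 0.51), named after their values were seen, were nearest to *Smg1*, while *Mtor*, *Prkdc* and *Trrap*, named in the same way, were between 0.01 and 0.07. The PIKK list was lowest in Ctrl 1 and highest in cKO 1, as *Smg1* was. The germ-cell markers were lowest in Ctrl 1 too, and highest in cKO 3 with cKO 1 next. The part of germ-cell content in the PIKK values was not tested.

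**Figure D4:**
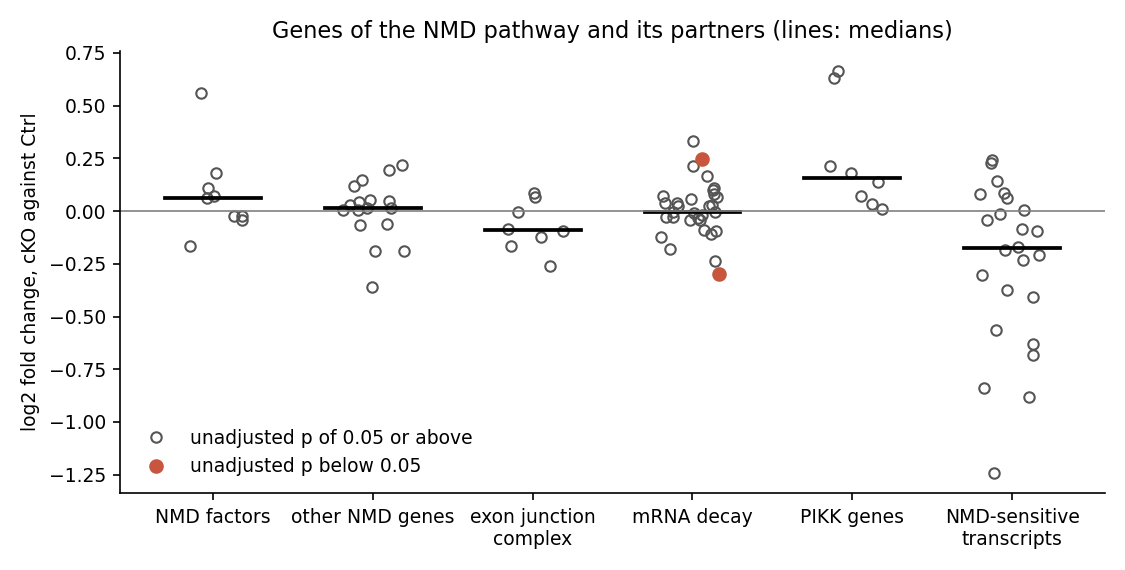
Log2 fold change of cKO against Ctrl for each gene tested in 6 lists (points), with lines for medians and filled points for an unadjusted p below 0.05 in limma. Only *Xrn2* and *Dcp1b* of the mRNA decay list passed, and the transcripts known as NMD substrates had a median of -0.18.

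Next, 25 genes with transcripts known as NMD substrates were listed, and 24 reached the minimum mean level for testing. Their FPKM counts all forms of a gene, so it is not a direct measure of NMD. Of the 24 genes tested, 0 passed the limit, 17 had a log2 fold change below 0 and 7 above, and the median was -0.18. Over all 17180 genes tested, 4.43% passed, 8958 lay below 0 and 8222 above, and the median was -0.01. *Gas5*, a snoRNA host gene whose spliced RNA is a textbook NMD substrate, was at 42.4, 34.2 and 31.7 FPKM in Ctrl and at 21.5, 39.9 and 23.9 FPKM in cKO. The cKO libraries 1 and 3 were the lowest of the 6 and cKO 2 lay within Ctrl, and the log2 fold change was -0.37 (standard error 0.24). The widest difference was that of *Trib3* (log2 fold change -1.24, unadjusted p = 0.0685 in limma), which like *Ddit3* also answers to cell stress. *Ddit3* was at 28.6, 14.8 and 8.89 FPKM in Ctrl and at 6.49, 9.64 and 8.31 FPKM in cKO, which gave a log2 fold change of -0.88 (standard error 0.38, unadjusted p = 0.0556 and adjusted p = 0.978 in limma), with Ctrl 1 far above the rest. Ctrl 1 was also the highest library for *Trib3* (12.6 FPKM), *Atf4* (103 FPKM) and *Asns* (83.7 FPKM). The part of this library in the values of the list was not tested. *Gas5*, *Trib3*, *Ddit3*, *Atf4* and *Asns* were named after their values were seen.

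The annotation offered another list. In GENCODE M21, 3704 of the 13470 protein-coding genes tested, or 27.5%, have at least 1 transcript marked as an NMD substrate. Among the members these are *Smg1*, *Smg5* and *Smg6*, with 1 such transcript each. The 3704 genes had a median log2 fold change of -0.01 and 3.43% passed the unadjusted limit, beside -0.02 and 3.88% for the 9766 genes without such a transcript. FPKM takes every form of a gene together and cannot show the level of an NMD form within it.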

How the data were processed

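Per the methods of the study, poly(A) RNA of whole ovaries was sequenced as paired-end reads from 3 biological replicates per group. The authors aligned the reads to GRCm38 (mm10) with HISAT2 2.0.5, counted reads on genes (featureCounts) and deposited the counts as FPKM. Neither the annotation release nor the use of strand is given in the sources used here. Groups and replicate numbers came from sample titles.

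The value of 1 read per library was taken from FPKM times gene length, and 100% of values were whole within 0.05 of a read. limma 3.58.1 in R 4.3.3 was fitted to log2(FPKM + 1) where a gene averaged 0.5 FPKM or more over the libraries. The model held the group alone, with a trend of variance on level, and tests were two-sided. It was chosen because the authors' count test needs counts, and the authors' unadjusted limit of 0.05 was kept. On the log2(FPKM + 1) scale, changes of low genes are understated. The fit was tested on simulated data. Alternatives were other pseudocounts, minimum levels, scalings and variance models, voom on the recovered reads, the replicate block, a germ-cell covariate and each library left out. Single values were compared by exact permutation (scipy 1.17.1).

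By rule, the named genes are *Srsf1*, the 9 members, genes of the pathway lists past the limit and the 5 genes most like the member with the smallest p, and 1 further gene of this rule is not reported here. Genes named outside this rule are marked in the text as named after their values were seen. Members and lists were chosen with earlier results of these data known. Promoter windows are from RefSeq (GRCm38.p6), and coordinates are those of the deposited table, equal to GENCODE M21.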

Additional observations from a re-analysis of the deposited data

How the results depend on the processing

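Of the 9 factors, 0 passed the unadjusted limit under other pseudocounts, minimum levels, scalings, variance models, voom, the replicate block or the germ-cell covariate, and 2 passed without cKO 2 (*Smg1* and *Upf3a*), so that leaving out 1 library gave 0 to 2. Over all genes, leaving out 1 library gave 364 to 2493 genes past the limit, 201 to 1457 higher and 163 to 1036 lower. With no minimum FPKM there were 1331, 736 higher and 595 lower, and with the germ-cell covariate 422 were higher and 569 lower. The excess of higher calls also turned without Ctrl 1 (243 higher, 382 lower) and without Ctrl 3 (548 higher, 628 lower). At an adjusted p below 0.05, 4 genes were called without Ctrl 1 and 0 in every other fit.

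Small differences turned direction. With the germ-cell covariate, the log2 fold change was 0.00844 for *Upf3a* and 0.0383 for *Upf3b*. Leaving out 1 library gave -0.0189 to 0.148 for *Upf1*, -0.175 to 0.0740 for *Upf2*, -0.423 to 0.0308 for *Upf3a*, -0.105 to 0.0140 for *Upf3b*, -0.0744 to 0.0386 for *Smg6* and -0.00616 to 0.118 for *Smg8*. It gave 0.0513 to 0.196 for *Smg5* and 0.00397 to 0.327 for *Smg9*, which kept their sign, and -0.0155 to 0.371 for the log2 ratio of *Upf3b* to *Upf3a*, which did not. The cause of these turns was not tested.

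The sample titles link the 2 groups by replicate number only. The deviations of same-numbered libraries had correlations across genes of -0.39, -0.03 and 0.12, and those of differently numbered libraries ran from -0.34 to 0.35. With 3 libraries per group, these correlations cannot show whether libraries were paired. With the replicate block, 681 genes passed, 434 higher and 247 lower, and *Smg1* had an unadjusted p of 0.125 in limma. Without the block, the log2 fold change of *Smg1* was 0.56, larger than its standard error of 0.29 (n = 3 per group). Its confidence interval ran from -0.13 to 1.25, so the absence of a change was not excluded.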
